A study of Mus musculus with 28 samples.

Results

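Imprinted genes were examined across RNA-seq of mouse neural stem cells (NSCs) from the brain, peripheral NSCs (pNSCs) grown from tail, lung and dorsal root ganglia (DRG), and the cells these were compared with. The 41 genes were taken by their exact symbols from the 28244 genes counted, and all 41 were found. One of them, *Snurf*, was listed at 0 in every one of the 28 samples. All 216 of its exonic bases are shared with *Snrpn* on the same strand, so this 0 does not measure its level. By the parental copy usually read in the mouse, 25 of the genes were placed as paternally expressed and 12 as maternally expressed. The other 4 were placed as depending on tissue or isoform. *Grb10* was placed with the maternally expressed genes, which need not hold in neural cells.

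An imprinted gene is read mainly from the copy inherited from one parent. The choice is laid down in the germ line as DNA methylation of a control region, and it is kept through later cell divisions by factors such as the zinc finger protein ZFP57, TRIM28 and DNMT1. Most imprinted genes lie in domains that share one control region, and many act on fetal growth, on placenta or on the brain. Paternally and maternally expressed genes often act on growth in opposite ways, as with the growth factor *Igf2* and its clearing receptor *Igf2r*. The counts used here add both copies of a gene, so they measure its level and not which copy was read.

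The 28 samples fell into 11 groups of 3 experiments. Brain NSCs, tail pNSCs, lung pNSCs, tail cells and lung cells had 2 replicates each. Their labels name no reporter, and they were taken as the Nes-GFP experiment of the study, whose groups and numbers they match. There GFP is driven by Nestin regulatory elements, and pNSCs were grown from GFP+ cells of adult lung or postnatal tail. Wnt1Cre-mTmG brain NSCs, tail pNSCs and DRG pNSCs had 3 replicates each. In these mice Wnt1-driven Cre turns membrane Tomato into membrane GFP in the neural crest lineage, and the Tomato+ GFP- lines came from unsorted postnatal cells. Sox2-GFP brain NSCs and lung pNSCs had 3 replicates each, the latter from GFP+ cells of postnatal lung, where GFP was knocked into the *Sox2* locus. Adult mice were around 4 to 6 weeks old and postnatal mice 1 to 5 days old. The study's methods name adult or postnatal mice for brain NSCs and do not tie an age to each brain line used here. All samples were labelled C57BL/6, while the study's methods also name CD1 and CD1 crossed with C3H as background. The pNSC lines grew from single clusters picked by hand, so a group can stand for 1 clone. DRG neural crest stem cells (NCSCs), with 3 replicates, are described by the study as cells of adult wild-type ganglia, and their labels give the cell type as NSC. They thus differ from the Wnt1 groups in genotype and age too, which cannot be told apart from cell type wherever the NCSCs are compared. Groups are called Wnt1 or Sox2 groups here after these mice.

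Total counts ran from 9808246 to 22637031 per sample, with Wnt1 brain NSCs and Wnt1 DRG pNSCs at 9808246 to 11431445, so that 3 counts, taken as the least detectable amount, stood for 0.13 to 0.296 cpm (counts scaled to a library of 1000000). Replicates of a group lay close together, with a squared difference of 1.09 to 2.82 times the counting error per gene, except in the NCSCs (2.22 to 21, highest with replicate 3). The study calls the replicates biological, but no label ties them to separate cultures or animals, so p-values measure the spread between these samples, which may be technical. The summed level of 10 neural stem cell markers was 6057 to 8390 cpm in all NSC and pNSC samples, 141.4 to 144.6 in tail cells and 340.7 to 365.6 in lung cells. In bulk RNA, fewer cells of a type and less RNA per cell cannot be told apart.

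The promoters of 4 members are shown because the results turn on them. *Grb10* (chr11:11930508-12038683) has a pair of windows, and its group means were 377-fold apart between the highest and lowest NSC or pNSC group. *Meg3* (chr12:109541001-109571726) opens the maternal noncoding RNAs of its domain, and *Mest* (chr6:30723547-30748465) had group means 21.1-fold apart. The *Peg3* window (gene at chr7:6703892-6730431) overlaps that of *Usp29* on the other strand. Gene positions are those of GENCODE vM21 on GRCm38. Each window runs from 250 bases before to 50 after a RefSeq start (GRCm38.p6), 5′ to 3′ on the gene's strand, and capitals mark TGCCGC on either strand, the letters that ZFP57 binds when methylated. *Meg3* has another window (chr12:109545148-109545447, 1 CpG) and *Mest* another pair, at chr6:30733256-30733555 (8 CpG) and at chr6:30737803-30738102, which overlaps the one shown. The windows at chr12:109545148 and chr6:30733256 hold 0 copies of the hexamer, and those shown were picked because they hold it.
Grb10, upstream start, chr11:12037371-12037670, minus strand: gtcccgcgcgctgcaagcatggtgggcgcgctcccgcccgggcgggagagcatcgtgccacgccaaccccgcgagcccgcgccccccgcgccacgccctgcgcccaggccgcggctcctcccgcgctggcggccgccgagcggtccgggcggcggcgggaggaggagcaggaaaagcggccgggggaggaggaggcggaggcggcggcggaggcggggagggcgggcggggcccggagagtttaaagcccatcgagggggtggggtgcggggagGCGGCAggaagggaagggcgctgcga
Grb10, downstream start, chr11:12027922-12028221, minus strand: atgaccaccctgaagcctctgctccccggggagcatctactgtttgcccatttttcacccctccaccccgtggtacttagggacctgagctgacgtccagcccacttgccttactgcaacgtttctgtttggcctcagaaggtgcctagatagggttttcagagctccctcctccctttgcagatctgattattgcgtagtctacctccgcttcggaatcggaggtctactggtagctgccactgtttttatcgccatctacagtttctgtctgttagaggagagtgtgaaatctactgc
Meg3, chr12:109540746-109541045, plus strand: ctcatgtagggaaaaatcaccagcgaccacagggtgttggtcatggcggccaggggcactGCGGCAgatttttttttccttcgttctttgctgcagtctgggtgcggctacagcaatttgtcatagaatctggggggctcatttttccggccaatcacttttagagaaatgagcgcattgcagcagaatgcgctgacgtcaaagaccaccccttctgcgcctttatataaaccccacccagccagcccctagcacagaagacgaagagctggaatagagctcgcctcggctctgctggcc
Mest, chr6:30737800-30738099, plus strand: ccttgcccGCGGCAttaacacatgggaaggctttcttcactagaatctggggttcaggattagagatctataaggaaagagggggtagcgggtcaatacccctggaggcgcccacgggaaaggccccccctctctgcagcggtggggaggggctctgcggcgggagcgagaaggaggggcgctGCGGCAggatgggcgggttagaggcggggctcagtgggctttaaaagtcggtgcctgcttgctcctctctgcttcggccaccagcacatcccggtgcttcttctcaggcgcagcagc
Peg3, chr7:6730370-6730669, minus strand: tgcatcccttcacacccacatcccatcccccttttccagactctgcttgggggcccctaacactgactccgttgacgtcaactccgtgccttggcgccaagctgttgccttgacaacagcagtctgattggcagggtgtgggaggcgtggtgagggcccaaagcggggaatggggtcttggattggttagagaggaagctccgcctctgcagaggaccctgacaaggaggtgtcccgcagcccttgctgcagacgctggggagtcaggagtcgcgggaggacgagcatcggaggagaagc
The upstream *Grb10* window held 45 CpG and 80.0% G and C, against 9 CpG and 52.3% in the downstream one. With overlapping windows of a strand counted once, the hexamer lay in 10 of 45 places of the 32 members with an entry (22.2%) and in 11.7% of 30704 places of all genes, which is a description of letters and not of binding. The hexamer itself holds a CpG. Member windows had a median of 11.5 CpG and 55% G and C, against 7 CpG and 52.7% in all windows, and the part of this was not tested. Counts per gene do not tell which start was used.

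Across the 8 NSC and pNSC groups the members ranged from among the strongest to the absent. Per kilobase of exon, *Nnat*, a small membrane protein of neural tissue, had the highest median over these groups (187.5 cpm per kb, range 103.1 to 328.8), followed by *Mest*, a hydrolase-like protein of fetal tissue (154.4, range 25.8 to 543.5), and *Nap1l5*, a retrogene (46.2, range 34.8 to 61.8). Some members hardly varied between NSC lines of any origin. The highest and lowest group means were 1.25-fold apart for *Trappc9*, a trafficking protein, 1.51-fold for *Ppp1r9a*, which encodes the synaptic protein neurabin, 1.605-fold for *Blcap* and 1.71-fold for *Impact*, a regulator of translation. At the other end, *Dio3*, which inactivates thyroid hormone, had 0 counts in all NSC and pNSC samples, although the 2 tail cell samples had 307 and 276 counts.

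**Figure D1:**
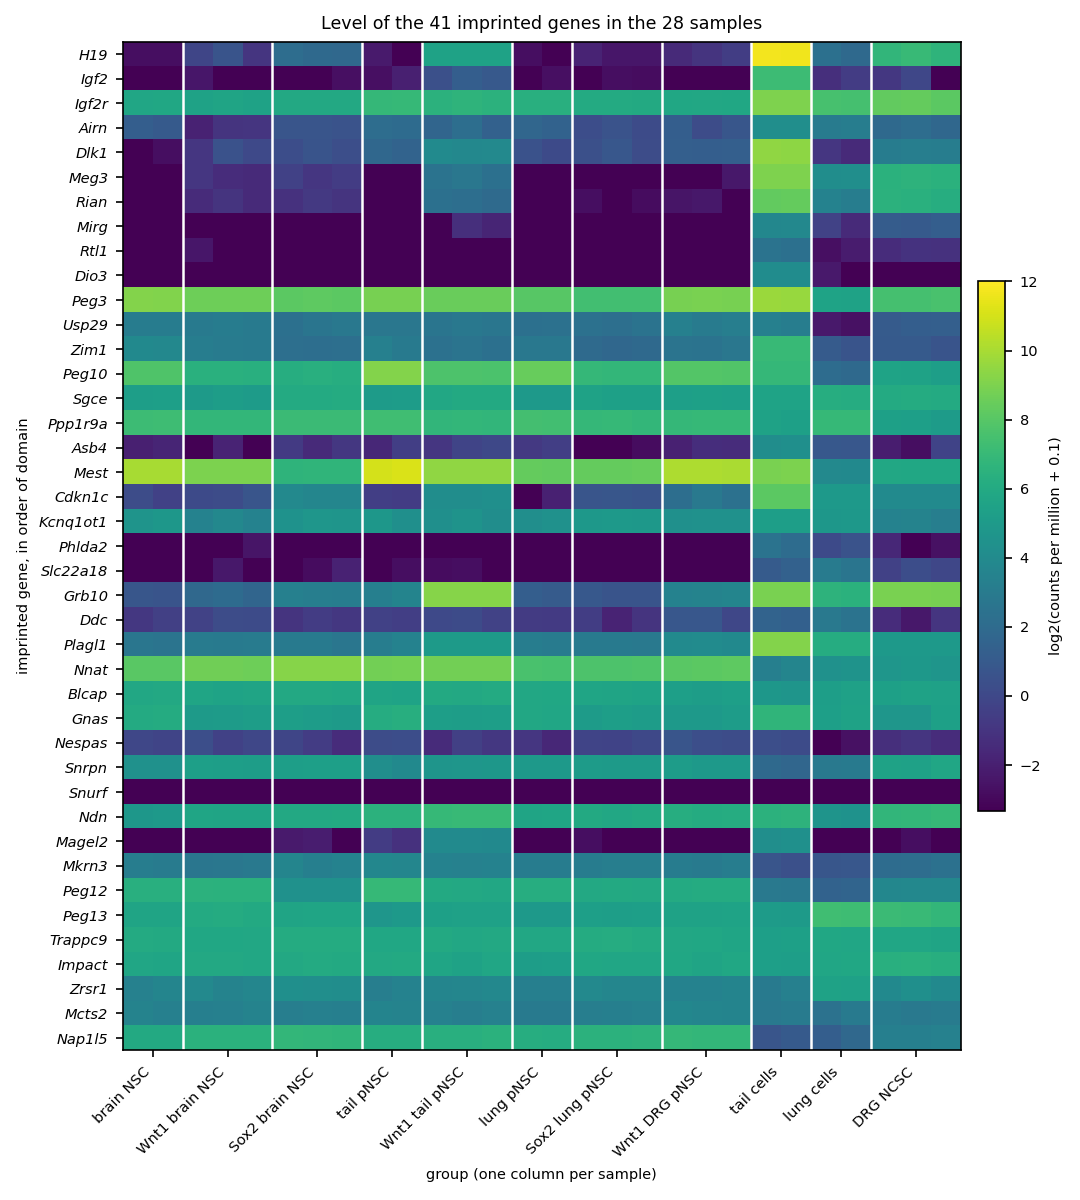
Level of each of the 41 genes (rows, in order of domain) in each of the 28 samples (columns, grouped), as log2 of cpm with 0.1 added. Mest, Peg3, Nnat and Peg10 are bright in the NSC and pNSC columns, H19 reaches 3336 cpm in tail cells, and Grb10 is bright in Wnt1 tail pNSCs, tail cells and NCSCs.

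The first question was how pNSCs differ from brain NSCs of the same experiment. A gene was called at an adjusted p under 0.05 (edgeR, Benjamini-Hochberg) with at least a 2-fold difference. The most calls were made in the Wnt1 tail pNSCs, with 15 of the 36 members that passed the filter called, all higher (the remaining 5 members were not tested, and 18.2% of the 14448 genes tested were called, 9.16% higher and 9.05% lower). The median log2 difference was 0.59 over these members and 0.00 over all genes tested. Of the 10 maternally expressed members tested 8 were called, *Grb10* among them, and of the 22 paternally expressed ones 7. These calls include *Magel2* and *Igf2*, which passed the filter only through the Wnt1 tail pNSCs, and *Asb4*, which passed mainly through them. A fall could not have been called for these genes.

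*Grb10*, an adaptor that binds the insulin and IGF1 receptors and restrains their signalling, made the widest difference among abundant members. It stood at 585, 599 and 589 cpm in the Wnt1 tail pNSCs and at 3.48, 3.97 and 3.13 in Wnt1 brain NSCs, 168-fold apart (log2 7.40 ± 0.0607 SE, edgeR adjusted p = 1.25e-21). Every other NSC or pNSC sample lay between 1.49 and 12.4 cpm, so the Wnt1 tail line was alone among these groups. The NCSCs stood at 493, 486 and 471 cpm, a difference of log2 0.28 from the Wnt1 tail pNSCs that was under the fold limit, and the tail cells of the other experiment at 476.8 and 479 cpm.

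*Magel2* (chr7:62377010-62381640), a MAGE family gene of the Prader-Willi domain, had 370, 352 and 302 counts (16.2, 16.2 and 15.2 cpm) in the Wnt1 tail pNSCs and 0 counts in all Wnt1 brain NSCs, so it was at least 54.6-fold higher. Tail cells held 19.2 and 20.5 cpm, the Nes-GFP tail pNSCs 0.571 and 0.355 cpm, and the other NSC, lung cell and NCSC samples at most 3 counts. Its neighbour *Ndn*, a growth-restraining MAGE protein, was present everywhere and rose from 51.1, 49.0 and 48.5 to 125, 127 and 127 cpm (log2 1.35 ± 0.0488).

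The maternal noncoding RNA *H19* (chr7:142575529-142578143) stood at 44.9, 44.9 and 44.6 cpm in Wnt1 tail pNSCs against 0.804, 1.45 and 0.423 in Wnt1 brain NSCs (log2 5.68 ± 0.183, edgeR adjusted p = 2.66e-14). Its partner *Igf2*, the fetal growth factor, had 28, 49 and 37 counts against 1, 0 and 0, a ratio of 59.0 with a 95% counting interval of 10.4 to 2350. *Cdkn1c* (chr7:143458339-143461050), which encodes the cell cycle inhibitor p57, stood at 18.45, 18.5 and 19.6 cpm against 0.983, 1.06 and 1.52 (log2 3.97 ± 0.169). In each of the 3 genes the groups did not overlap. The same held for *Irs2*, which is not imprinted and was not called (89.7 against 80.5 cpm on average, log2 0.16). A lack of overlap thus says little here and below, and its share over all genes was not counted.

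In the Dlk1-Dio3 domain a paternally expressed gene and maternal RNAs rose together in this line, while *Rtl1* and *Dio3* were at 0 counts. *Dlk1* (chr12:109452823-109463336), a paternally expressed membrane protein related to Notch ligands, stood at 15.7, 14.35 and 14.5 cpm against 0.447, 1.35 and 0.929 (log2 4.04 ± 0.178). The maternal *Meg3* stood at 5.64, 6.53 and 4.93 cpm against 0.447, 0.290 and 0.254 (log2 4.09 ± 0.261), and *Rian*, a host of small nucleolar RNAs, rose likewise (log2 3.86 ± 0.303). *Plagl1*, a zinc finger regulator of other imprinted genes, rose by log2 1.98 ± 0.0714, the antisense RNA *Airn* by 3.33 ± 0.399, and the retrotransposon-derived *Peg10* by 1.33 ± 0.0572. *Airn* had only 2, 4 and 5 counts in the Wnt1 brain NSCs. *Igf2r* rose by 1.02 ± 0.0601, and fell under the fold limit at 0.99 without Wnt1 tail pNSC replicate 2 or without Wnt1 brain NSC replicate 1. *Asb4* was called at under 1 cpm, and the call of *Mirg*, with 0, 7 and 4 counts against 0 in all, was lost when Wnt1 tail pNSC replicate 2 or 3 or any 1 of the brain replicates was left out (adjusted p 0.0847 to 0.133) and with upper-quartile scaling (0.0504).

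Markers of mesenchymal cells moved with this result. The summed level of 10 such markers, none of them at 0 in either group, was 632.3 to 639 cpm in Wnt1 tail pNSCs, 100.4 to 104.3 in Wnt1 brain NSCs and 73330 to 75240 in tail cells. Set against the tail cells of the other experiment, the marker sum of the Wnt1 tail pNSCs was 0.856%, while *H19* was 1.36%, *Meg3* 1.09%, *Dlk1* 2.165%, *Cdkn1c* 6.68%, *Magel2* 79.9% and *Grb10* 124%. The part of mesenchymal cells in these differences was not tested.

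**Figure D2:**
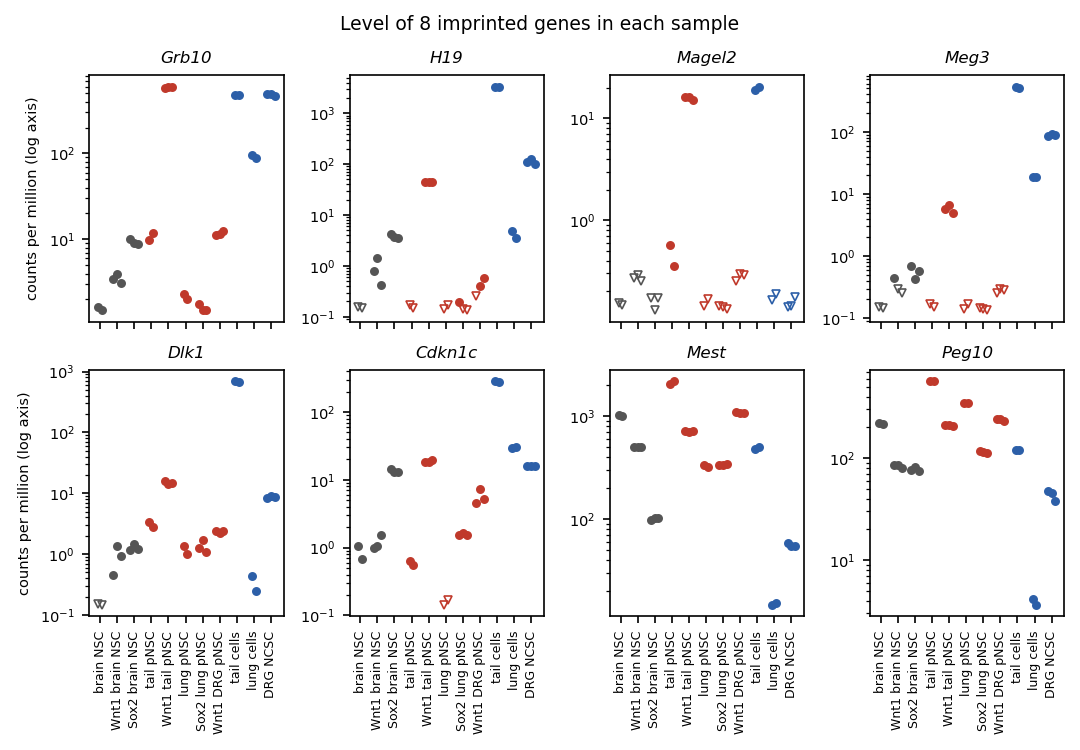
Cpm (log axis) of 8 imprinted genes in each sample, with brain NSCs in grey, pNSCs in red, and tissue cells and NCSCs in blue. Open triangles mark samples at or under 3 counts, drawn at the level of 3 counts. Grb10, H19 and Magel2 are far higher in Wnt1 tail pNSCs than in the other pNSC groups.

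In the tail pNSCs of the Nes-GFP experiment 8 of the 40 members that passed the filter were called, all higher than in brain NSCs (10.9% of the 16948 genes tested were called, 4.31% higher and 6.59% lower). The median log2 difference was 0.14 over these members and 0.00 over all genes. Only 31 of the 40 members were above 3 counts in a sample of either group. *Mest* had its highest level of all groups here, at 2089 and 2199 cpm against 1030 and 1001 (log2 1.08 ± 0.0294). *Peg10* stood at 566 and 565 cpm against 222 and 217 (log2 1.37 ± 0.0344), and *Ndn* at 93.2 and 91.5 against 27.9 and 31.0 (log2 1.65 ± 0.0608). *Igf2r* stood at 118 and 122 cpm against 53.5 and 55.0 (log2 1.15 ± 0.0446).

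*Grb10* was higher here too, at 9.71 and 11.9 cpm against 1.62 and 1.51 (log2 2.79 ± 0.158, edgeR adjusted p = 8.91e-67), but on a far lower level than in the Wnt1 line. *Dlk1* had 59 and 56 counts against 0 and 1, a ratio of 124 with a counting interval of 21.9 to 4951, and *Magel2* had 10 and 7 counts against 0 and 0, at least 3.04-fold higher. The remaining call was *Igf2*, at 1 and 3 counts against 0 and 0, which is at the floor and for which no fold is given, and this call was lost without tail pNSC replicate 2 or either brain NSC replicate (edgeR adjusted p = 0.149 to 0.261), with no filter on low counts (0.0657) and with DESeq2 (0.0645). *H19*, *Meg3*, *Rian*, *Mirg*, *Rtl1*, *Dio3*, *Phlda2* and *Slc22a18* were at or under 3 counts in every sample of both groups. Summed mesenchymal markers were at 144.2 to 151.7 cpm in the tail pNSCs (1 of 10 at 0) and 79.31 to 81.06 in the brain NSCs (2 at 0), and their part was not tested.

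The tail effect was then compared between the experiments in 1 fit over all 28 samples, where 8 of 40 members differed, 5 toward a larger value in the Wnt1 experiment and 3 toward a smaller one (16.0% of all genes, 8.96% and 7.05%). The rise of *Grb10* was larger in the Wnt1 experiment by log2 4.61 ± 0.250 (edgeR adjusted p = 3.18e-18), that of *Cdkn1c* by 4.52 ± 0.450 and that of *Plagl1* by 1.26 ± 0.136. *Peg12*, a member of the Prader-Willi domain, went the other way, with log2 0.60 in the Nes-GFP and -0.56 in the Wnt1 experiment (difference -1.17 ± 0.0610, adjusted p = 1.12e-18). Reporter, clone and experiment cannot be told apart in this difference.

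Wnt1 DRG pNSCs shared their brain NSCs with the Wnt1 tail pNSCs and had 7 of 36 members called, 6 higher and 1 lower (9.53% of genes tested, 3.12% higher and 6.41% lower), with a median log2 difference of 0.22 against 0.01 over all genes. *Mest* stood at 1104, 1091 and 1069 cpm against 499, 506 and 509 (log2 1.11 ± 0.0333), and *Peg10* at 243, 244 and 229 against 85.6, 84.7 and 79.9 (log2 1.52 ± 0.0582). *Grb10* rose to 11.2, 11.6 and 12.4 cpm (log2 1.74 ± 0.0983) and *Cdkn1c* to 4.49, 7.29 and 5.19 cpm (log2 2.22 ± 0.226). *Dlk1* (log2 1.38 ± 0.277) and *Airn* (log2 2.33 ± 0.504) were also higher, the latter against 2, 4 and 5 counts in the brain NSCs. *Meg3* was lower, at 0, 0 and 1 counts against 5, 3 and 3, a ratio of 10.7 with a counting interval of 1.55 to 459, and its call was lost without DRG pNSC replicate 1 (edgeR adjusted p = 0.0529).

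In both lung comparisons more members were called lower than higher. In the Nes-GFP experiment 7 of 40 members were called, 2 higher and 5 lower (8.71% of genes tested, 4.56% higher and 4.15% lower), and both medians were 0.00. This comparison shares its brain NSCs with that of the tail. Only 30 of its 40 members were above 3 counts in a sample of either group. Some of the others had no counts in both groups, which draws the member median toward no difference. *Mest* fell from 1030 and 1001 to 338 and 322 cpm (log2 -1.63 ± 0.0309), and *Peg3*, a zinc finger protein, from 571 and 548 to 260.4 and 258 cpm (log2 -1.12 ± 0.0334). The nearby maternal gene *Zim1* fell by log2 1.13 (SE 0.118). *Cdkn1c* had 0 and 3 counts, 11.3-fold under brain NSCs with a counting interval of 3.56 to 57.45, and *Dlk1* had 29 and 18 counts against 0 and 1, a ratio of 48.5 (8.29 to 1956). *Asb4* (log2 1.58) and the antisense RNA *Nespas* (log2 -1.29) were called at under 1 cpm, and both calls were lost on leaving out any 1 of the 4 libraries, brain NSC or lung pNSC replicate 1 or 2, with log2 1.40 to 1.77 and -1.85 to -0.94. The call of *Nespas* was also lost with upper-quartile scaling (adjusted p = 0.0538), with no filter on low counts (0.0696) and with DESeq2 (0.17). Summed markers of neural crest and Schwann cells were at 25.33 to 25.79 cpm in the lung pNSCs (0 of 8 at 0) and 10.15 to 10.18 in the brain NSCs (2 at 0), those of neurons at 10.05 to 11.15 and 28.61 to 31.03 (1 of 5 at 0 in each), and their part was not tested.

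In the Sox2 experiment 10 of the 35 members that passed were called in lung pNSCs, 2 higher and 8 lower (15.7% of the 16234 genes tested, 5.76% higher and 9.99% lower). The median log2 difference was -0.26 over these members and 0.00 over all genes, and a fit of only these groups called 6. *Mest* went up, at 338, 339 and 342 cpm against 99.1, 104 and 103 (log2 1.74 ± 0.0250). *Peg12* also rose, from 21.4, 21.3 and 21.6 to 61.0, 63.2 and 59.5 cpm (log2 1.51 ± 0.0499), whereas *Nnat* fell from 607, 596 and 600.4 to 214, 214 and 219.8 cpm (log2 -1.48 ± 0.0207). Of the 11 maternally expressed members tested 7 were called, all lower, among them *H19*, *Cdkn1c*, *Grb10*, *Meg3* and *Rian*. The called *Meg3*, *Rian*, *Asb4* and *Slc22a18* had at most 12 counts in any library of these groups. They passed the filter only in the fit that held the lung cells too.

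*Cdkn1c* stood at 1.53, 1.63 and 1.51 cpm in the Sox2 lung pNSCs against 14.5, 12.97 and 12.97 in Sox2 brain NSCs (log2 -3.11 ± 0.130, edgeR adjusted p = 4.92e-125). *Grb10* stood at 1.77, 1.49 and 1.51 cpm against 10.1, 9.12 and 8.84 (log2 -2.55 ± 0.137), and *H19* at 4, 2 and 2 counts against 75, 86 and 62 (log2 -4.90 ± 0.327). *Meg3* had 0 counts against 12, 10 and 10, at least 3.94-fold lower. The Sox2 brain NSCs were thus higher than their lung pNSCs in each of the 4 genes. They were also higher in the summed markers of mesenchymal cells (149 to 153.9 against 89.79 to 97.23 cpm, 1 of 10 at 0 in each) and of neural crest and Schwann cells (72.39 to 77.53 against 28.59 to 29.79 cpm), whose part was not tested. The call of *Slc22a18* rested on at most 3 counts per library and was lost without Sox2 brain NSC replicate 3 or any 1 of the lung pNSC replicates, with edgeR adjusted p from 0.0775 to 0.268, and with DESeq2 (0.0516).

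**Figure D3:**
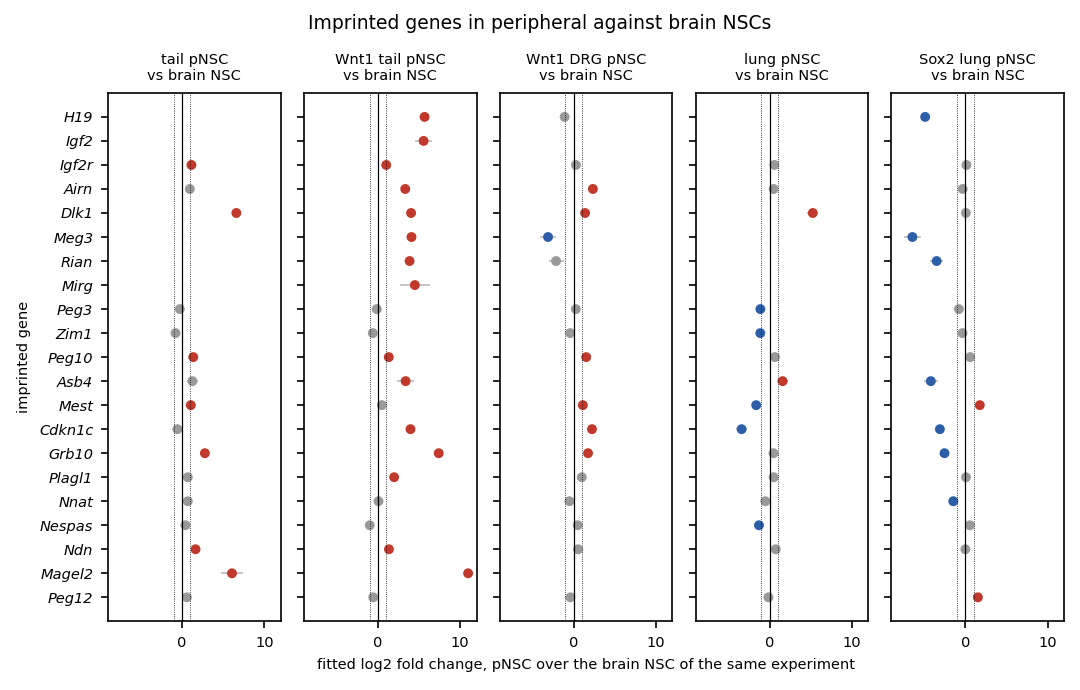
Fitted log2 fold change (points) with its SE (bars) of the members called in at least 1 of the 5 comparisons of pNSCs with the brain NSCs of their experiment. Red is called higher, blue called lower, grey not called, dotted lines mark 2-fold, and members at or under 3 counts in both groups are left out. A fold against a group at 0 depends on the prior count of the fit. Called members of Wnt1 tail pNSCs are all higher, and those of Sox2 lung pNSCs mostly lower.

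The lung effect differed between the Sox2 and Nes-GFP experiments for 6 of 40 members, 3 each way (14.1% of all genes, 5.89% larger and 8.24% smaller in the Sox2 experiment). *Mest* went in opposite directions (difference log2 3.36 ± 0.0497, edgeR adjusted p = 1.58e-35), although its levels in the lung pNSCs of both experiments lay between 322 and 342 cpm. The brain NSCs were at 1001 and 1030 cpm in the Nes-GFP experiment and at 99.1 to 104 cpm in the Sox2 experiment. *Peg12* (difference log2 1.64 ± 0.0660) was at 73.9 to 74.1 and 59.5 to 63.2 cpm in the lung pNSCs, with brain NSCs at 80.9 and 81.0 cpm against 21.3 to 21.6. For *Grb10* the difference was -3.03 ± 0.242.

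The 3 brain NSC lines were therefore compared with each other. Wnt1 against Nes-GFP brain NSCs gave 9 of 40 members called, 5 higher and 4 lower (12.5% of 17393 genes tested, 9.12% and 3.35%). Sox2 against Nes-GFP gave 12, 8 higher and 4 lower (19%, with 11.9% and 7.09%), and Sox2 against Wnt1 8, 6 higher and 2 lower (15.5%, with 7.83% and 7.68%). *Mest* was lower by log2 3.32 (SE 0.0351) in the Sox2 than in the Nes-GFP line, a 9.98-fold difference, and the Wnt1 line lay between them at 505 cpm on average (log2 -1.01 against the Nes-GFP line). That value was at the fold limit and went under it without brain NSC replicate 1 (-0.98), without Wnt1 brain NSC replicate 1 (-1.0), with upper-quartile scaling (-0.96), with DESeq2 (-0.97), and narrowly with no filter on low counts. *Peg10* was lower in both the Wnt1 (log2 -1.39 ± 0.0502) and the Sox2 line (log2 -1.51 ± 0.0478) than in the Nes-GFP line. *Cdkn1c* was higher in the Sox2 line than in the Nes-GFP line by log2 3.94 (SE 0.173) and than in the Wnt1 line by 3.48 (SE 0.169). *Meg3* and *Rian* had 0 counts in the Nes-GFP brain NSCs and 3 to 12 counts in the other brain NSC samples. Brain NSC line, mouse background and experiment cannot be told apart here.

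Of the 5 comparisons with brain NSCs, *Dlk1* was called higher in 4 and *Peg10* in 3, and neither was called lower, a pair singled out after their values were seen. In the fifth, Sox2 lung pNSCs, *Dlk1* was at 1.24, 1.72 and 1.07 cpm against 1.15, 1.47 and 1.21, which overlap (log2 0.05). *Peg10* was at log2 0.65 and 0.57 in the lung comparisons, under the fold limit. The tail and lung comparisons of the Nes-GFP experiment share their brain NSCs, as do the tail and DRG comparisons of the Wnt1 experiment, so these are not independent.

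In 2 places members start side by side on opposite strands. *Peg3* and *Usp29*, a deubiquitinase, start 147 bases apart. In lung pNSCs, *Usp29* differed from brain NSCs by log2 -0.79 (not called) beside -1.12 for *Peg3*, and in Sox2 lung pNSCs by -0.24 beside -0.80. *Peg10* and *Sgce*, which encodes epsilon-sarcoglycan, start 99 bases apart. In the tail pNSCs *Peg10* rose by 1.37 while *Sgce* was at -0.16, and in the DRG pNSCs *Peg10* rose by 1.52 with *Sgce* at 0.25. In the Wnt1 tail pNSCs *Peg10* rose by 1.33 beside 0.84 for *Sgce*, whose levels of 57.7, 62.4 and 62.0 cpm did not overlap with the 32.4, 36.1 and 33.55 of the brain NSCs but stayed under the fold limit. Group means over the 8 NSC groups spanned 7.36-fold for *Peg10* and 2.14-fold for *Sgce*.

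**Figure D4:**
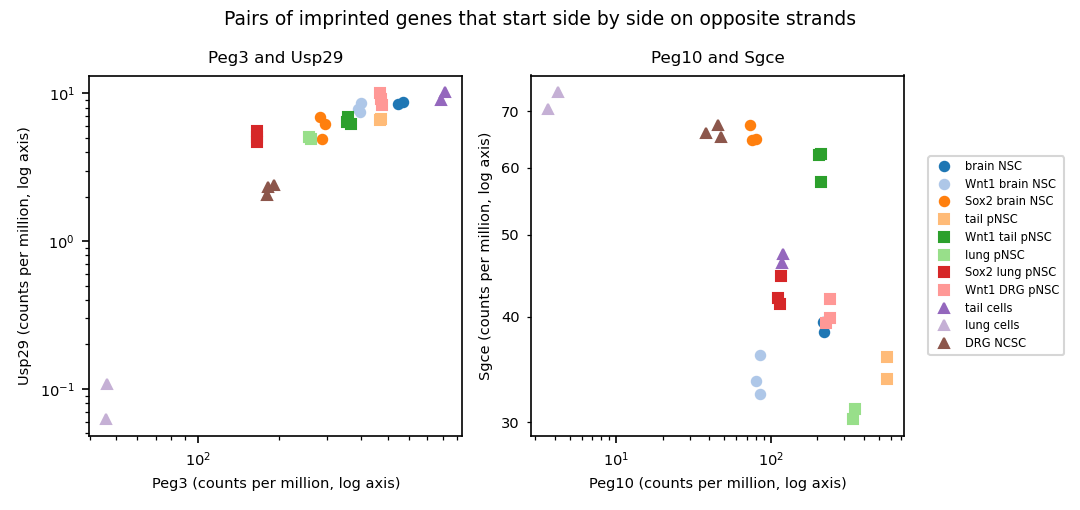
Cpm (log axes) of Peg3 and Usp29 (left) and of Peg10 and Sgce (right) in each of the 28 samples, with circles for brain NSCs, squares for pNSCs and triangles for tissue cells and NCSCs. Lung cells are lowest for Peg3, Usp29 and Peg10, yet highest for Sgce.

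The second question was how pNSCs differ from the samples labelled tail and lung, called tail cells and lung cells here. Tail pNSCs and tail cells differed in 27 of 40 members, 8 higher and 19 lower in pNSCs (46.7% of genes tested, 14.1% higher and 32.6% lower). Of the 12 maternally expressed members 11 were lower and 1, *Ppp1r9a*, was higher. The lower calls include *Igf2*, *Mirg*, *Rtl1*, *Dio3* and *Magel2*, which passed the filter only through the tail cells. A rise could not have been called for these genes. Tail cells held *H19* at 3336 and 3262 cpm against 2 and 0 counts in the pNSCs, a ratio of 61460 with a counting interval of 17010 to 507500. *Meg3*, at 533 and 515 cpm in tail cells, had 0 counts in tail pNSCs, at least 3059-fold lower, and *Rian* was at least 1893-fold lower. *Cdkn1c* was 476-fold, *Dlk1* 221-fold, *Plagl1* 58.4-fold and *Grb10* 44.3-fold lower in the pNSCs. The members that were higher in pNSCs were *Nap1l5* (43.9-fold), *Nnat* (38.9-fold), *Peg12* (17.4-fold), *Mkrn3* (9.60-fold), *Snrpn* (4.98-fold), *Peg10* (4.73-fold), *Mest* (4.36-fold) and *Ppp1r9a* (3.62-fold). Summed mesenchymal markers stood at 73330 to 75240 cpm in the tail cells and 144.2 to 151.7 in the tail pNSCs, epithelial ones at 4168 to 4266 and 0.1714 to 0.3548, endothelial ones at 919.2 to 941.3 and 6.57 to 6.792, and those of neural crest and Schwann cells at 1016 to 1038 and 3.828 to 3.953. None of these markers was at 0 in the tail cells, and their part was not tested.

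Lung pNSCs against lung cells gave 30 of 40 members called, 13 higher and 17 lower (55.0% of genes tested, 20.2% higher and 34.9% lower), and Sox2 lung pNSCs against the same lung cells 27 of 35, 13 higher and 14 lower (56.3%, with 21.3% and 34.9%). Both comparisons use the same 2 lung cell samples. These were taken with the Nes-GFP experiment, whose lung pNSCs came from adult lung, while the Sox2 lung pNSCs came from postnatal lung. In the Sox2 comparison, age, reporter and experiment thus cannot be told apart from cell type. There *Rian*, *Asb4*, *Phlda2* and *Slc22a18* passed the filter only through the lung cells, so a rise could not have been called for them. Summed epithelial markers stood at 25340 to 25910 cpm in the lung cells and at most 0.0474 and 0.178 cpm in the lung and Sox2 lung pNSCs, where 5 and 3 of the 6 were at 0. Endothelial markers summed to 3923 to 4015 cpm in the lung cells and at most 3.241 in both pNSC groups, leukocyte markers to 539.5 to 539.9 and at most 3.717, and mesenchymal markers to 5293 to 5404 and at most 97.23. The part of these cells in the differences was not tested. *Peg10* stood at 343 and 349 cpm in lung pNSCs and at 116.5, 114.5 and 112 in Sox2 lung pNSCs, against 4.19 and 3.62 in lung cells (88.8-fold and 29.3-fold). *Mest* was 22.1-fold and 22.7-fold higher, *Nap1l5* 25.0-fold and 31.6-fold, and *Peg12* 25.9-fold and 21.45-fold. On the lower side, *Grb10* was 42.7-fold and 58.2-fold under the lung cells and *Plagl1* 8.38-fold and 9.465-fold. *Peg13*, a noncoding RNA inside an intron of *Trappc9*, was 5.06-fold and 3.92-fold lower, while *Trappc9* itself was called in neither.

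**Figure D5:**
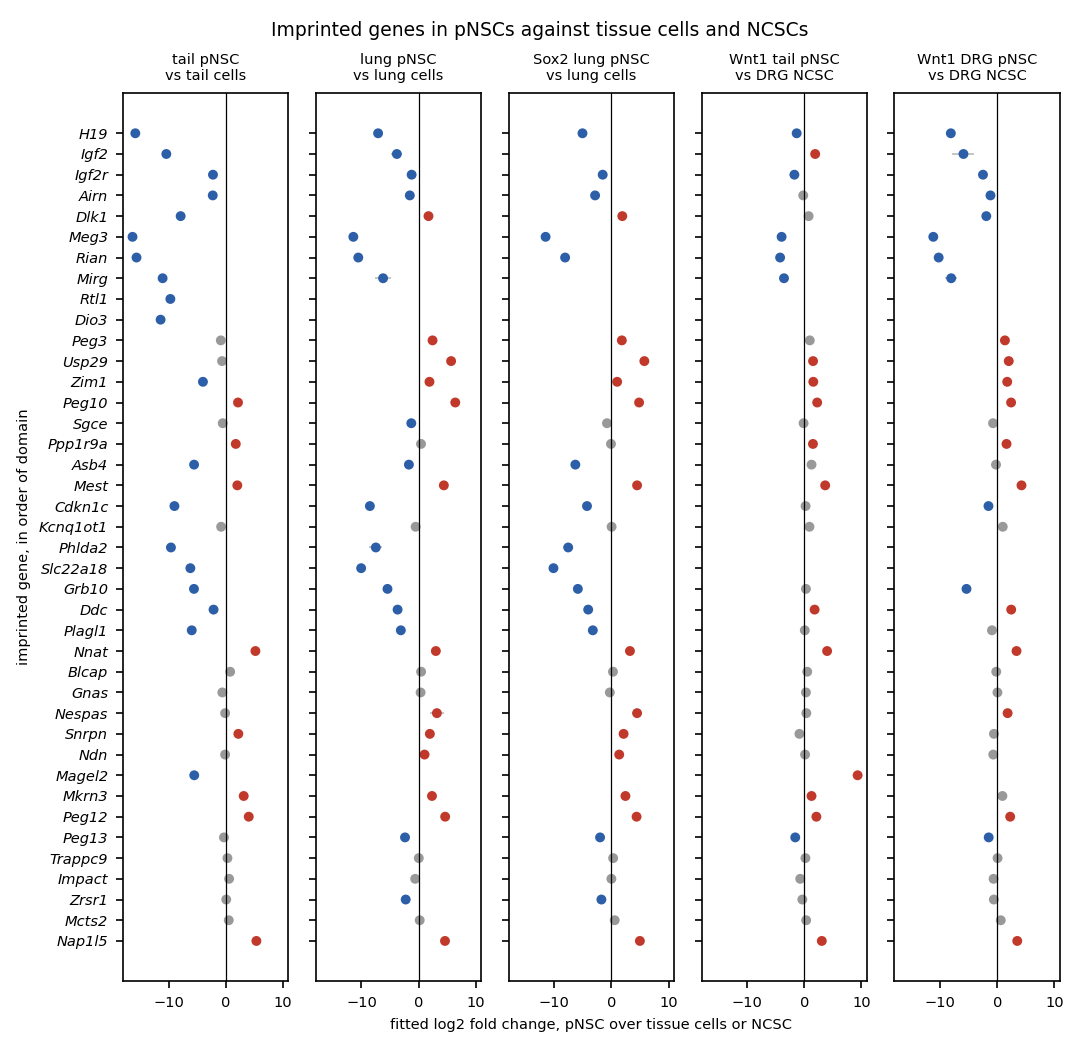
Fitted log2 fold change (points) with its SE (bars) of imprinted genes in pNSCs against tail cells, lung cells or DRG NCSCs, with red called higher, blue called lower and grey not called. Members at or under 3 counts in both groups are left out, and a fold against a group at 0 depends on the prior count of the fit. Nnat, Mest, Peg10, Peg12 and Nap1l5 are higher in all 5 panels, and Meg3 and Rian lower in all 5.

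The third question was how pNSCs differ from neural crest stem cells. NCSCs differed from Wnt1 brain NSCs in 22 of 36 members, 12 higher and 10 lower (36.9% of genes tested, 22.1% higher and 14.8% lower). Wnt1 tail pNSCs differed from the NCSCs in 18 members, 12 higher and 6 lower (37.9%, with 15.3% and 22.6%), and Wnt1 DRG pNSCs in 22, 11 each way (38.3%, with 15.1% and 23.3%). Without NCSC replicate 3, which stood apart from the others, the counts were 23, 18 and 22. *Mirg* passed the filter only through the NCSCs, so it could only be called as higher in them. *Nnat* was 16.0-fold higher in the tail pNSCs and 10.55-fold higher in the DRG pNSCs than in NCSCs, and *Mest* 12.6-fold and 19.25-fold. *Meg3* stood at 87.1, 93.9 and 88.1 cpm in the NCSCs and was 15.7-fold lower in the tail pNSCs.

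The pNSC lines parted at *Grb10* and *H19*. *Grb10* in the tail pNSCs was not called against the NCSCs, while the DRG pNSCs were 41.2-fold lower (log2 -5.38 ± 0.0510, edgeR adjusted p = 6.81e-22). *H19* was 2.52-fold lower than in NCSCs in the tail pNSCs and 277-fold lower in the DRG pNSCs. *Magel2* was at 0, 1 and 0 counts in NCSCs against 370, 352 and 302 in the tail pNSCs. Neural crest and Schwann cell markers, 8 in number, summed to 4285 to 4399 cpm in NCSCs, 15.7 to 18.5 in the tail pNSCs (1 marker at 0) and 6.99 to 7.625 in the DRG pNSCs (1 at 0). Mesenchymal markers summed to 7153 to 7242, 632.3 to 639 and 93.7 to 98.61 cpm in the same order. Neuron markers summed to 605.3 to 619.2, 35.58 to 36.98 and 26.4 to 27.79 cpm. Neural stem cell markers were lower in NCSCs, at 1455 to 1839 cpm. The part of these cells in the differences was not tested.

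Partners of the IGF axis outside the set were looked at from a list of 15 genes, 14 of them tested in each comparison with brain NSCs. Rises and falls numbered 7 and 1 in Wnt1 tail pNSCs, 3 and 1 in tail pNSCs, 3 and 1 in lung pNSCs, 2 and 1 in DRG pNSCs, and 1 and 4 in Sox2 lung pNSCs. The 7 rises include the largest, *Igf2bp1* (30.9 against 0.0322 cpm on average), which passed the filter only through the Wnt1 tail pNSCs. A fall could not have been called for it. Of all genes tested 18.2%, 10.9%, 8.71%, 9.53% and 15.7% were called in these comparisons, in the same order. The rises in Wnt1 tail pNSCs included *Igf2bp3* (log2 6.80 ± 0.131), whose protein binds *Igf2* and other mRNAs, and *Igf1* (log2 5.19 ± 0.197), the growth factor itself. *Igfbp3*, a secreted IGF-binding protein, fell by log2 1.73 (SE 0.0410). In Sox2 lung pNSCs *Igf2bp3* (-3.80 ± 0.0964), its relative *Igf2bp2* (-3.38 ± 0.105) and the secreted *Igfbp5* (-2.84 ± 0.0300) were lower.

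Of 38 further imprinted genes outside the set, 27 were tested in the Wnt1 experiment, where the tail line showed 4 rises and 3 falls and the DRG line 2 rises and 5 falls (18.2% and 9.53% of all genes were called). Among them *Zdbf2*, a paternally expressed gene of the brain, rose in tail pNSCs (9.06 against 0.177 cpm, log2 5.60 ± 0.307). *Dcn*, a matrix proteoglycan that mesenchymal cells make, rose with it (log2 4.22 ± 0.176). In the Nes-GFP experiment 32 were tested, with 4 rises and 4 falls in the tail line and 4 rises and 0 falls in the lung line (10.9% and 8.71% of all genes), and in the Sox2 experiment 30, with 3 each way (15.7%). *Qpct*, glutaminyl cyclase, fell in tail pNSCs (0.238 against 1.87 cpm, log2 -2.91 ± 0.452), and *Sfmbt2* rose in lung pNSCs (7.49 against 0.447 cpm, log2 4.03 ± 0.296).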

How the data were processed

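RNA was sequenced from 28 samples in 11 groups, as poly(A)-selected single-end libraries. The authors deposited 1 table of raw counts per gene, aligned to GRCm38, and whether counting used strand is not given in the sources used here, so reads from overlapping genes on opposite strands cannot be told apart (8 members overlap a counted gene in this way, among them Mest with Copg2). The members and gene lists were chosen with earlier results of these data known.

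Each experiment was fitted on its own with edgeR 4.0.16 in R 4.3.3 (TMM scaling, filterByExpr with a minimum count of 10 and a total of 15, quasi-likelihood F test, Benjamini-Hochberg over all genes tested). Comparisons between experiments used 1 fit of all 28 samples. A gene was called at adjusted p under 0.05 and a fold of at least 2. Against a group at 0, a lower bound was taken from 3 counts in its shallowest library, and with 1 to 3 counts the ratio is given with its exact 95% counting interval. Bounds and intervals cover counting error only. Each fit was tested on simulated counts for 1 comparison and recovered 200 of 200 changed genes, with at most 2 false calls. The changed genes had counts well above the filter and shifts of more than 2-fold, and all genes shared the same spread. Calls at low counts were therefore not covered by this test. In the comparisons of pNSCs with the brain NSCs of their experiment, members called with at least 1 cpm in a compared group were named. In the comparisons with tissue cells or NCSCs and between brain NSC lines only some were, so an unnamed member may have been called. Of each other list the 3 largest rises and falls were open to naming. Members named at lower levels, and those not called, were chosen after their values were seen. Alternatives were DESeq2 1.42.0, upper-quartile scaling, no filter, no fold limit, fits of only the groups compared, the replicate number as a block, and leaving out each replicate. Replicate numbers did not pair samples.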

Additional observations from a re-analysis of the deposited data

Results flagged for a closer look

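The effect of being a pNSC line, set against brain NSCs of the same experiment, was compared between experiments for tail and for lung, and 14 member effects differed by edgeR's test of the difference. Experiment, reporter, age and clone cannot be told apart in any of them.

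For tail, the Wnt1 effect exceeded the Nes-GFP effect for Grb10 (log2 4.61), Cdkn1c (4.52), Airn (2.37) and Plagl1 (1.26), and was below it for Peg12 (-1.17). Airn was not higher in the Wnt1 than in the Nes-GFP tail pNSCs (3.36 against 4.18 cpm on average). The brain NSCs stood at 0.329 cpm (2, 4 and 5 counts) in the Wnt1 and 2.14 cpm in the Nes-GFP experiment. H19 also differed (5.58, adjusted p = 0.0251), but it had at most 2 counts in each Nes-GFP library compared, and the call was lost without tail pNSC replicate 2 (4.57, adjusted p = 0.0567) or brain NSC replicate 1 (5.55, 0.124) or 2 (5.60, 0.115). Dlk1 differed by -2.57 (adjusted p = 0.0144) and lost the call with DESeq2 (-2.92, 0.0895) and without brain NSC replicate 1 (-1.77, 0.184) or Wnt1 brain NSC replicate 2 (-2.21, 0.0574). Nespas differed by -1.41 (adjusted p = 0.0275), and leaving out tail pNSC replicate 1 or 2, brain NSC replicate 2, Wnt1 tail pNSC replicate 1 or Wnt1 brain NSC replicate 1 ended the call (adjusted p = 0.0513 to 0.103), as did DESeq2 (0.0519).

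For lung, the Sox2 effect exceeded the Nes-GFP effect for Mest (log2 3.36), Peg12 (1.64) and Nespas (1.81, adjusted p = 0.00916, lost without lung pNSC replicate 2 at 1.46 and 0.0668). It was below it for Grb10 (-3.03), Dlk1 (-5.20) and Asb4 (-5.77). Asb4 had at most 11 counts in any of these libraries, and Dlk1 had 0 and 1 counts in the Nes-GFP brain NSCs.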

How the results depend on the processing

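No result changed direction under the alternatives run. Without the 2-fold limit more members passed, as did more of all genes tested (percentages): 25 in tail pNSCs (49.1%), 24 in lung pNSCs (40.3%), 29 in Wnt1 tail pNSCs (65.5%), 22 in Wnt1 DRG pNSCs (45.9%) and 24 in Sox2 lung pNSCs (65.5%) against their brain NSCs, 32 in Wnt1 tail pNSCs against NCSCs (83.6%), 26, 23 and 24 in Wnt1 against Nes-GFP, Sox2 against Nes-GFP and Sox2 against Wnt1 brain NSCs (46.5%, 60.6% and 57.3%), and 18 and 24 for the tail and lung differences (48.7% and 46.9%). A fit of only the Sox2 groups compared called 6 in place of 10. No member tested in both of these fits lost its call, and the others did not pass the filter of the smaller fit. Every other alternative kept the count of members within 1.5 times. Of the values of members called in the main fit, 2563 kept the call and 72 lost it. This tally includes the setting without a fold limit, which cannot lose a call. It leaves out members that an alternative fit did not test, and calls gained were not counted.

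Leaving out 1 replicate gave 7 to 10 members in tail and 5 in lung pNSCs against brain NSCs, 13 to 15 in Wnt1 tail, 6 to 8 in Wnt1 DRG and 9 to 10 in Sox2 lung pNSCs. Against tail cells, lung cells (Nes-GFP, then Sox2) and NCSCs (tail, then DRG) it gave 27 to 28, 29 to 30, 26 to 27, 18 to 19 and 22 to 23, and for NCSCs against Wnt1 brain NSCs 21 to 24. Brain NSC lines gave 8 to 10, 12 to 13 and 6 to 9, and the tail and lung differences 6 to 9 and 5 to 8. Where leaving out a replicate left 1 sample in a group, that sample was assumed to vary like the others.

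Replicate numbers did not pair the samples. With the replicate number as a block the count was unchanged in 9 of 16 comparisons, 5 were lower and 2 higher, each by 1, as in tail pNSCs against brain NSCs (7 in place of 8). The block ended the calls of Igf2 in tail pNSCs (adjusted p = 0.0551), Nespas in lung pNSCs (0.0782), Mirg in Wnt1 tail pNSCs (0.0647) and the tail difference of Nespas (0.0541), and took Mest in Wnt1 against Nes-GFP brain NSCs and Kcnq1ot1 in Sox2 against Wnt1 brain NSCs under 2-fold (log2 -0.99 and 0.97).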

Other observations

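Factors that keep imprints were looked at from a list of 22 genes, 18 of them tested in each comparison of pNSCs with brain NSCs. In tail, lung and Wnt1 DRG pNSCs edgeR called none (10.9%, 8.71% and 9.53% of all genes tested were called there), although many differed by less than 2-fold, such as Trim28, a corepressor that ZFP57 recruits, at log2 0.53 (SE 0.0320) in tail pNSCs. In Wnt1 tail pNSCs, with 18.2% of all genes called, Uhrf1, which guides DNMT1 to newly copied DNA, was lower (64.7 against 170.0 cpm, log2 -1.39, SE 0.0490), and Dnmt1 was at log2 -0.77 (SE 0.0432), under the fold limit. In Sox2 lung pNSCs, with 15.7% called, 3 were higher, namely Uhrf1 (232 against 49.2 cpm, log2 2.24, SE 0.0302), Hells, a chromatin remodeller (94.8 against 28.7 cpm, log2 1.72), and Dnmt1 (413 against 172 cpm, log2 1.27). Zfp57 itself was at 2.32 to 13 cpm in these groups and was called in none of the 5 comparisons. DNA methylation was not measured.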
